A study of Mus musculus with 12 samples.

Results

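The genes described here are those of the NRF2 antioxidant response in mouse liver: the transcription factor NRF2 (gene Nfe2l2), its inhibitor Keap1 and 8 target genes, Nqo1, Gclc, Gclm, Hmox1, Txnrd1, Srxn1, Slc7a11 and G6pdx. They were chosen by symbol, as the rows of the deposited gene table whose mouse Ensembl ID carries one of these 10 names. Each name had 1 row, so the set is 10 of the 54532 genes in the table, and glutathione transferases were kept out of it. Of the 10, 9 reached at least 1 FPKM (fragments scaled by exon length and by library size) in at least 3 of the 12 libraries and were tested, among 10806 genes in all. Slc7a11 did not.

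RNA was sequenced from whole liver in 4 groups of 3 libraries, all from wild-type mice of the inbred strain C57BL/6J. CD mice received a diet that the labels name only by these letters, and HFD mice received a high-fat diet. CD_DSS and HFD_DSS mice had the same diets together with 2% dextran sulfate sodium (DSS), which damages the lining of the colon and serves as a model of colitis. The labels give no age, sex, duration of diet or DSS, and do not state whether the 3 libraries of a group are 3 animals, so the p-values describe the spread between these libraries, which may be technical.

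NRF2 is a transcription factor that KEAP1 holds in the cytoplasm and hands to a ubiquitin ligase for degradation. Electrophiles and oxidants modify cysteines of KEAP1, NRF2 then accumulates, pairs with a small MAF protein in the nucleus and binds antioxidant response elements near its targets. In liver these targets make glutathione, reduce quinones and peroxides, supply NADPH and degrade heme, and much of the control of NRF2 itself is exerted on the protein, which RNA levels do not show.

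The core of the antioxidant response element, TGACNNNGC, was searched on both strands in RefSeq promoter windows of 300 bases (250 before to 50 after a transcription start, build GRCm38.p6). No window was found for Gclc and Hmox1, which were not searched. A window was found for 8 of the 10 genes: Nfe2l2, Keap1, Nqo1, Gclm, Txnrd1, Srxn1, Slc7a11 and G6pdx. The core was present in 5 of these 8 genes, against 14.0% of the 27025 genes with a window. These 3 stretches are shown because they hold the core before the start of Nfe2l2 itself and of a glutathione and a thioredoxin target, with the core in capitals, in the direction of the gene:
Nfe2l2: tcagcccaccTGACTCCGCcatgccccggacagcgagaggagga
Gclm: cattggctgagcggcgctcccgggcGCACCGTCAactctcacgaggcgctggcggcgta
Txnrd1: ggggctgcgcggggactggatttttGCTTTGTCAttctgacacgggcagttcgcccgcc

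The Nfe2l2 stretch is chr2:75704870-75704913 on the minus strand, and the core lay at −240 to −232 from the start. The Gclm stretch is chr3:122245398-122245456 on the plus strand, with the core at −134 to −126 and read on the opposite strand. The Txnrd1 stretch is chr10:82859089-82859147 on the plus strand, with the core at −92 to −84, also on the opposite strand, and it belongs to 1 of the 3 annotated starts of that gene. In G6pdx the core lay at −57 to −49 from the RefSeq start, inside a first exon that GENCODE extends further upstream, and in Srxn1 at 28 to 36 after the start. The windows of Keap1, Nqo1 and Slc7a11 did not hold these letters. A match of this kind is a description of the sequence and not a measured binding site.

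Depth was 23.4 to 29.4 M fragments per library. Values of log2(FPKM + 1) correlated at 0.972 to 0.989 between libraries of a group and at 0.949 to 0.988 between groups. The liver label was matched by its hepatocyte markers, with albumin (Alb) at 16130 FPKM or more in every library. Of the acute phase gene Saa1, which encodes serum amyloid A1 and is induced in hepatocytes by inflammation, 3 libraries had levels unlike the rest of their group. Untreated HFD 1 had 579 FPKM against 19.9 and 22.4 in HFD 2 and 3, CD_DSS 1 had 9.14 against 595 and 483 in CD_DSS 2 and 3, and HFD_DSS 2 had 191 against 1104 and 2670 in HFD_DSS 1 and 3. Results are therefore also given without HFD 1, CD_DSS 1 and HFD_DSS 2, and since these libraries were singled out by expression in these same data, those values are a description and no independent test.

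Averaged over both diets, 2 of the 9 tested genes passed the test with DSS. Hmox1, the heme oxygenase, was higher, and Gclc, the catalytic subunit of the enzyme that starts glutathione synthesis, was lower. That is 1 gene higher against a background of 8.72% of all tested genes called higher, and 1 gene lower against 11.2% called lower, so the share of NRF2 genes called was near that of all genes. NRF2's own transcript, Keap1, Nqo1, Gclm, Txnrd1, Srxn1 and G6pdx did not pass. The median log2 fold change of the 9 genes was 0.09, and that of all tested genes was −0.01. Within a single diet none of the 9 passed: 0 genes with CD, where 4.8% of all genes were called, and 0 genes with HFD, where 4.83% were called. At an unadjusted p under 0.05 (limma), 2 of the 9 passed with CD, beside 2555 of all 10806 tested genes, and 1 with HFD, beside 2561.

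**Figure D1:**
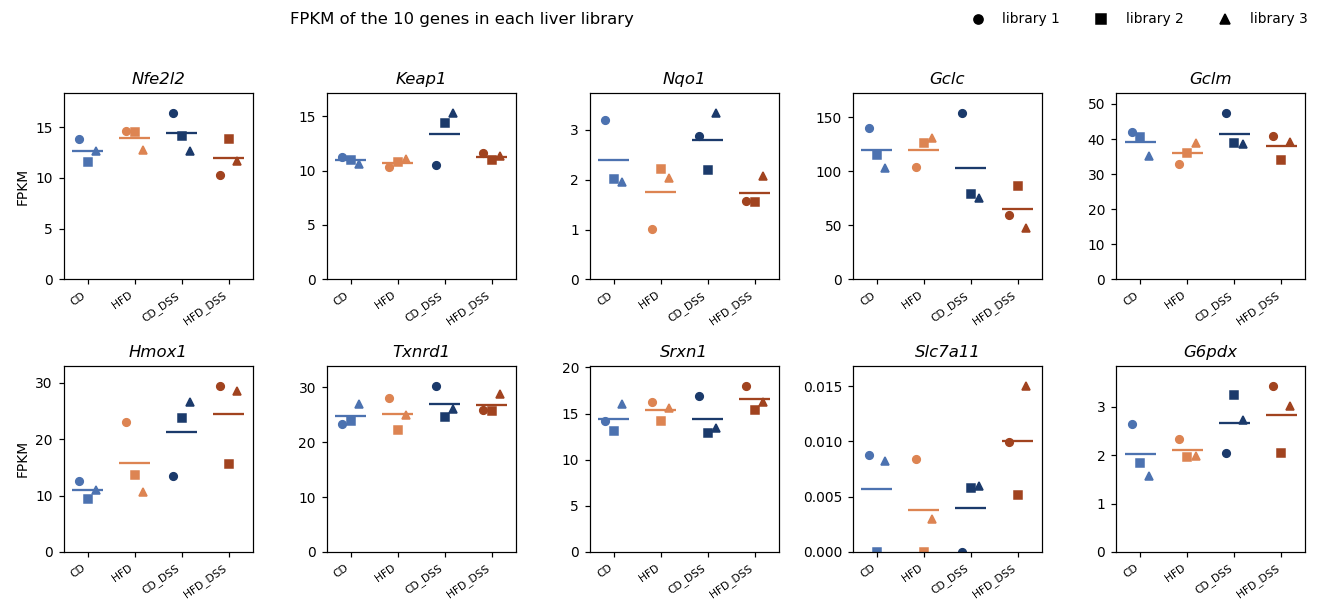
FPKM (y axis, linear, from 0) of each of the 10 genes in the 12 liver libraries, by group on the x axis, with circles, squares and triangles for libraries 1, 2 and 3 and a line at the group mean. Hmox1 spans 9.40 to 29.5 FPKM and Gclc 47.5 to 153.7, while Gclm, Txnrd1 and Srxn1 vary little and Slc7a11 stays at or below 0.0150 FPKM.

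The regulator and its inhibitor came first. Nfe2l2 lies on chr2:75675513-75704641 (minus strand, GRCm38). It had 13.8, 11.5 and 12.6 FPKM in CD 1 to 3, 14.6, 14.5 and 12.8 in HFD, 16.4, 14.1 and 12.7 in CD_DSS, and 10.3, 13.9 and 11.7 in HFD_DSS. The groups overlapped in each comparison of DSS with no DSS, and the level in the highest library was 1.60 times that in the lowest. The log2 fold change with DSS was 0.17 on CD (limma adjusted p = 0.446) and −0.22 on HFD (adjusted p = 0.305), and averaged over both diets it was −0.03 (95% interval −0.22 to 0.16, limma adjusted p = 0.870).

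Keap1, the sensor that keeps NRF2 low, lies on chr9:21229730-21239361 (minus strand). It had 11.2, 11.0 and 10.6 FPKM in CD, 10.3, 10.8 and 11.1 in HFD, 10.5, 14.4 and 15.3 in CD_DSS, and 11.6, 10.9 and 11.3 in HFD_DSS. Only CD_DSS 2 and 3 stood above the other 10 libraries, which all lay within 10.3 to 11.6 FPKM. The log2 fold change on CD was 0.26 (SE 0.11, 95% interval 0.01 to 0.50, limma adjusted p = 0.197), and on HFD it was 0.07. Without CD_DSS 1 the change on CD became 0.41 and passed the test (limma adjusted p = 0.00897). The averaged change, 0.16 (adjusted p = 0.173), also passed without that library, at 0.24 (limma adjusted p = 0.00680). Of the exon bases of Keap1, 10.9% are shared with the gene Gm16754 on the other strand, which had a mean of 0.128 FPKM.

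Glutathione is made by glutamate-cysteine ligase, whose catalytic subunit is Gclc and whose modifier subunit is Gclm, followed by glutathione synthetase, while Slc7a11 imports the cystine that feeds it. Gclc (chr9:77754535-77794485, plus strand) was the most abundant of the 10 transcripts. It had 139.7, 115.2 and 103.1 FPKM in CD, 103.5, 126.0 and 130.3 in HFD, 153.7, 79.2 and 75.7 in CD_DSS, and 59.8, 86.8 and 47.5 in HFD_DSS. On HFD the groups did not overlap, each DSS library lying below each untreated one. On CD they did, because CD_DSS 1 held the highest value of the study and CD_DSS 2 and 3 lay below every CD library. The share of all tested genes without overlap was not counted.

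The group means of Gclc were 119.3 ± 18.6 FPKM in CD, 119.9 ± 14.4 in HFD, 102.9 ± 44.1 in CD_DSS and 64.7 ± 20.1 in HFD_DSS (SD, n = 3 each). Averaged over both diets, Gclc fell by 0.60 on the log2 scale (SE 0.19, 95% interval −1.02 to −0.17, 1.51-fold, limma adjusted p = 0.0499). This call sat at the threshold and was lost without any 1 of 10 libraries, all except CD_DSS 1 and HFD_DSS 2, where the log2 change was −0.65 to −0.50 (limma adjusted p 0.0502 to 0.116). It was also lost with TPM scaling (adjusted p = 0.112), median-of-ratios scaling (0.0548), no filter on low values (0.126) and the replicate number as a block (0.0594).

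By diet, the log2 fold change of Gclc was −0.92 on HFD (95% interval −1.52 to −0.32, limma adjusted p = 0.0752) and −0.28 on CD (SE 0.27, adjusted p = 0.585). The HFD change passed without CD_DSS 1 (−0.92, limma adjusted p = 0.0229) or without HFD_DSS 2 (−1.15, adjusted p = 0.0341). The difference between both DSS effects was −0.64 (95% interval −1.49 to 0.21, limma adjusted p = 1.00), so a different response on the 2 diets was not shown, and without CD_DSS 1 it was −0.31. Without the 3 libraries singled out by Saa1, the change was −0.61 on CD (limma adjusted p = 0.01996), −1.25 on HFD (0.00140) and −0.93 averaged (3.92e-04).

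Gclm (chr3:122245557-122270732, plus strand) did not follow its partner. It had 42.0, 40.6 and 35.3 FPKM in CD, 32.99, 36.2 and 38.7 in HFD, 47.4, 38.9 and 38.5 in CD_DSS, and 40.8, 34.1 and 39.1 in HFD_DSS, with all groups overlapping. Its averaged log2 fold change was 0.08 (95% interval −0.10 to 0.25, limma adjusted p = 0.539), and on CD, where it was 0.08, it took the opposite sign without CD_DSS 1, at −0.02. The ratio of the levels of Gclc to Gclm, both in FPKM, was 3.03 ± 0.26 in CD, 3.33 ± 0.18 in HFD, 2.42 ± 0.72 in CD_DSS and 1.74 ± 0.71 in HFD_DSS (SD, n = 3 each). The ratio was 2.84 or more in all 6 untreated libraries. It was 3.25 in CD_DSS 1 and 2.54 in HFD_DSS 2, and lay between 1.22 and 2.04 in the other 4 DSS libraries. This ratio was computed after the values of both genes were seen and was not tested.

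Slc7a11 (chr3:49892526-50443614, minus strand) was close to undetected. Its deposited values corresponded to 0 to 5 fragments per library and 24 in all 12, or at most 0.0150 FPKM. In 3 libraries (CD 2, HFD 2 and CD_DSS 1) it was at 0. A count of 0 allows up to 3 fragments, which is 0.00921 FPKM at the lowest depth of the 12 libraries and less in these 3. This limit covers counting error only. No difference between groups was detectable at this depth.

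Hmox1 (chr8:75093621-75100589, plus strand) encodes the inducible heme oxygenase, which opens the heme ring to release iron, carbon monoxide and biliverdin, and it is also abundant in macrophages that clear red cells. It had 12.5, 9.40 and 10.9 FPKM in CD, 23.1, 13.6 and 10.7 in HFD, 13.5, 23.7 and 26.6 in CD_DSS, and 29.5, 15.6 and 28.5 in HFD_DSS. On CD the groups did not overlap, though CD_DSS 1 exceeded the highest CD library by little. On HFD they overlapped, since untreated HFD 1 lay above HFD_DSS 2. Here too, the share of all tested genes without overlap was not counted.

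The group means of Hmox1 were 10.9 ± 1.57 FPKM in CD, 15.8 ± 6.47 in HFD, 21.3 ± 6.90 in CD_DSS and 24.5 ± 7.76 in HFD_DSS (SD, n = 3 each). Averaged over both diets, Hmox1 rose by 0.73 on the log2 scale (SE 0.22, 95% interval 0.24 to 1.23, 1.66-fold, limma adjusted p = 0.0406). The call was lost without any 1 of 9 libraries, all except HFD 1, CD_DSS 1 and HFD_DSS 2 (log2 change 0.62 to 0.78, limma adjusted p 0.0539 to 0.0966). It was lost as well with no filter on low values (0.110) and with the replicate number as a block (0.0602).

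By diet, the log2 fold change of Hmox1 was 0.85 on CD (SE 0.32, 95% interval 0.16 to 1.55, limma adjusted p = 0.137) and 0.62 on HFD (95% interval −0.08 to 1.31, adjusted p = 0.264). Without CD_DSS 1 the change on CD was 1.14 and passed the test (limma adjusted p = 0.0422). Without the 3 libraries singled out by Saa1 it was 1.14 on CD (limma adjusted p = 0.00117), 1.197 on HFD (0.00139) and 1.17 averaged (1.00e-04).

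**Figure D2:**
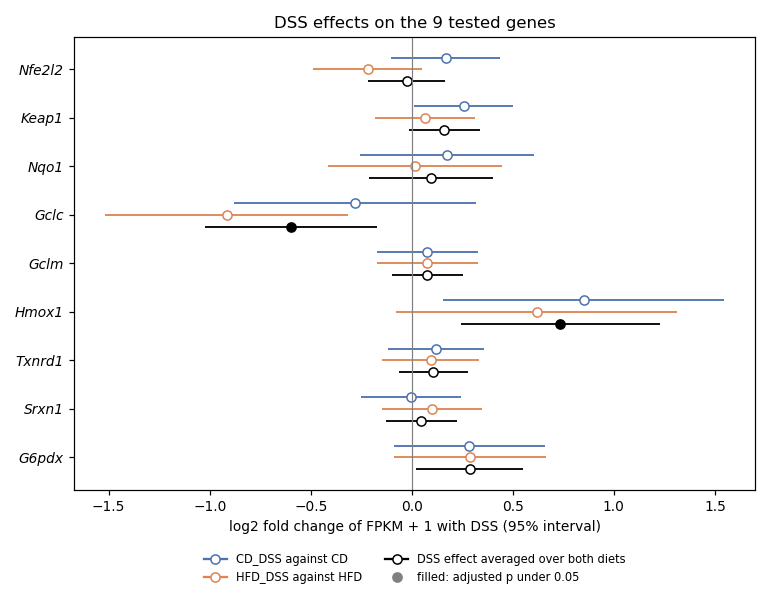
Log2 fold change of FPKM + 1 with DSS (x axis) for the 9 tested genes (y axis), with 95% intervals, on CD (blue), on HFD (orange) and averaged over both (black). The filled points, adjusted p under 0.05, are the averaged effects of Hmox1 (0.73) and Gclc (−0.60), and the averaged intervals of Nfe2l2, Keap1, Nqo1, Gclm, Txnrd1 and Srxn1 include 0.

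Macrophage marker RNA was also higher with DSS. All 10 Kupffer cell and macrophage markers were tested, and 4 were higher with DSS averaged over both diets, beside 8.72% of all tested genes. These were Marco (log2 fold change 1.52), Cd5l (0.83), Timd4 (0.66) and Adgre1 (0.57), and the list median was 0.50. Other cell types also had markers called higher: 2 of 5 endothelial, 1 of 5 hepatocyte, 1 of 5 stellate and 1 of 3 cholangiocyte markers. Of 3 tested erythroid markers, 1 was lower. The summed level of the 10 macrophage markers was 240.3 to 303.2 FPKM in CD, 236 to 373.9 in HFD, 264.6 to 497.5 in CD_DSS and 321 to 469.5 in HFD_DSS, and no marker was at 0 in all libraries. The highest HFD value was that of HFD 1 and the lowest values with DSS were those of CD_DSS 1 and HFD_DSS 2. The 7 neutrophil markers, of which 4 were tested and none passed, summed to 1.79 to 3.30 FPKM in CD, 1.91 to 24.7 in HFD, 4.03 to 24.5 in CD_DSS and 5.57 to 59.1 in HFD_DSS. The part of these cells in the Hmox1 result was not tested, and in whole tissue more cells of a type and more RNA per cell cannot be told apart.

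The 3 libraries that stood apart from their groups in Saa1 held the highest or lowest Hmox1 and Gclc of their groups. HFD 1, the HFD library with the most Saa1, had the most Hmox1 (23.1 FPKM) and the least Gclc (103.5) of its group. That Gclc level lay within the range of the CD libraries, 103.1 to 139.7 FPKM. CD_DSS 1, with the least Saa1 of its group, had the least Hmox1 (13.5) and the most Gclc (153.7), and so had HFD_DSS 2 (15.6 and 86.8). In CD, where Saa1 was 15.0 to 49.2 FPKM, the library with the most Saa1 had the least Hmox1 (9.40). Its Gclc (115.2) lay between those of the other CD libraries. Of Nqo1, HFD 1 had the least of its group as well (1.00 FPKM against 2.20 and 2.04), but CD_DSS 1 (2.87) lay between CD_DSS 2 (2.19) and 3 (3.34), and HFD_DSS 2 (1.55) was close to HFD_DSS 1 (1.57). These are descriptions after the values were seen, and no correlation was computed because the libraries form separate clusters of Saa1.

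**Figure D3:**
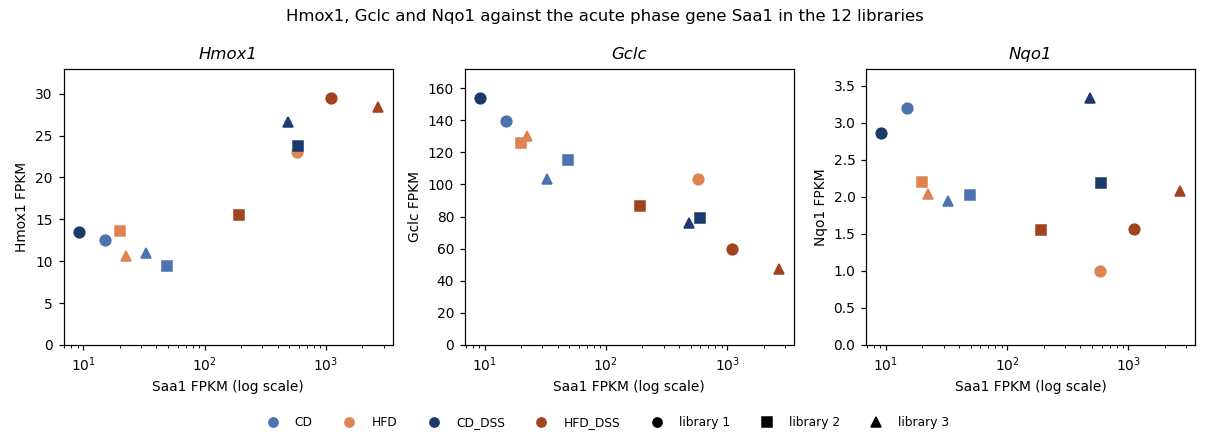
FPKM of Hmox1, Gclc and Nqo1 (y axes, linear, from 0) against Saa1 FPKM (x axis, log scale) in the 12 libraries, colored by group with a symbol for the library number. HFD 1, at 579 FPKM of Saa1, lies among DSS libraries for Hmox1, and CD_DSS 1, at 9.14, lies at the untreated end for Hmox1 and Gclc.

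Nqo1 (chr8:107388225-107403206, minus strand), the quinone reductase that is often used as an index of NRF2 activity, was low in these livers. It had 3.20, 2.02 and 1.95 FPKM in CD, 1.00, 2.20 and 2.04 in HFD, 2.87, 2.19 and 3.34 in CD_DSS, and 1.57, 1.55 and 2.07 in HFD_DSS, from 40 to 133 fragments per library. The log2 fold change with DSS was 0.17 on CD (limma adjusted p = 0.645), 0.02 on HFD (adjusted p = 0.972) and 0.09 averaged (95% interval −0.21 to 0.40, adjusted p = 0.676). The scale of FPKM + 1 understates fold changes at these levels.

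In the thioredoxin branch, Txnrd1 (chr10:82833951-82897712, plus strand) encodes the cytosolic thioredoxin reductase, which uses NADPH to keep thioredoxin reduced. It had 23.3, 23.9 and 26.9 FPKM in CD, 28.0, 22.3 and 24.96 in HFD, 30.3, 24.7 and 26.0 in CD_DSS, and 25.8, 25.6 and 28.8 in HFD_DSS, the narrowest range of the 9 tested genes at 1.36-fold. Its averaged log2 fold change was 0.11 (95% interval −0.06 to 0.28, limma adjusted p = 0.351). Srxn1 (chr2:152105516-152111376, plus strand) encodes sulfiredoxin, which repairs overoxidized peroxiredoxins. It had 14.2, 13.1 and 16.1 FPKM in CD, 16.2, 14.2 and 15.6 in HFD, 16.9, 12.9 and 13.5 in CD_DSS, and 18.02, 15.4 and 16.3 in HFD_DSS. All groups compared for DSS overlapped, and the averaged log2 fold change was 0.05 (95% interval −0.13 to 0.22, limma adjusted p = 0.722).

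G6pdx (chrX:74409483-74429194, minus strand), the glucose-6-phosphate dehydrogenase that opens the pentose phosphate pathway and supplies NADPH, had 2.64, 1.84 and 1.56 FPKM in CD and 2.33, 1.97 and 1.99 in HFD. With DSS it had 2.03, 3.23 and 2.73 on CD and 3.43, 2.03 and 3.00 on HFD, with CD_DSS 1 and HFD_DSS 2 again the lowest of their groups. The averaged log2 fold change was 0.29 (95% interval 0.02 to 0.55, limma adjusted p = 0.116). It passed without HFD_DSS 2 (0.37, limma adjusted p = 0.0409) and without the 3 libraries singled out by Saa1 (0.46, adjusted p = 0.0129). The value of G6pdx is uncertain, because 13.6% of its exon bases are shared with Ikbkg on the other strand, which was more abundant (mean 9.82 FPKM) and had an averaged log2 fold change of 0.08 (limma adjusted p = 0.443). The near-copy G6pd2 was listed at 0 in all libraries.

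No comparison between the diets called any of the 9 tested genes. Between HFD and CD without DSS, 0 of the 9 passed (limma), against 0.00925% of all tested genes, and the log2 fold changes lay between −0.31 for Nqo1 and 0.43 for Hmox1. Both ends moved with single libraries: Nqo1 was −0.10 without HFD 1 and −0.15 without CD 1, and Hmox1 was 0.14 without HFD 1 and 0.66 without HFD 3. At an unadjusted p under 0.05, 0 of the 9 passed, beside 726 of all tested genes. With DSS, 0 passed (2 unadjusted, beside 1171 of all genes) against 0.102%. Nqo1 had 1.55 to 2.07 FPKM in HFD_DSS against 2.19 to 3.34 in CD_DSS (log2 fold change −0.47, 95% interval −0.90 to −0.04, limma adjusted p = 0.411). These ranges did not overlap, but the share of all tested genes without overlap was not counted for any comparison. Gclc had −0.63 in the same comparison (95% interval −1.22 to −0.03, limma adjusted p = 0.435), and −0.30 without CD_DSS 1.

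Averaged over both DSS states, 0 of the 9 passed between diets (1 unadjusted, beside 1364 of all genes) against 0.342%, with Nqo1 lowest at −0.39 (limma adjusted p = 0.268) and Hmox1 highest at 0.31. Without HFD 1 or without CD_DSS 1 the Hmox1 value was 0.17. The difference between both DSS effects called 0 of the 9 (1 unadjusted, beside 533 of all genes), against 0.00925%. Nfe2l2 was the gene with an unadjusted p under 0.05 in it, with a difference of −0.39 (95% interval −0.77 to −0.01).

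Among other genes of the NRF2 pathway, decreases with DSS outnumbered increases. Of 76 such genes listed in 7 groups, 70 were tested, and averaged over both diets 5 were higher and 22 lower with DSS, beside 8.72% higher and 11.2% lower of all tested genes, among which decreases also outnumbered increases (1215 against 942). The 70 genes had a median log2 fold change of −0.21 against −0.01 for all tested genes. Of the 27 calls, 13 were kept in every alternative and with every library left out in turn. On CD, 2 of the 70 were higher and 3 lower, beside 217 higher and 302 lower of all 10806 tested genes. On HFD, 0 were higher and 8 lower, beside 187 and 335 of all tested genes. Of these pathway calls, 0 on CD and 1 on HFD were kept in every alternative.

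Glutathione transferases and other drug-metabolizing enzymes, which conjugate, reduce or oxidize foreign compounds, held most of the decreases. Of 24 tested, 12 fell and 0 rose, with a median of −0.49. Cyp2a5, a cytochrome P450 that oxidizes coumarin, had the largest averaged change, −2.91 (SE 0.31, limma adjusted p = 6.08e-04). Its level was 89.8 ± 10.6 FPKM in CD, 43.8 ± 8.05 in HFD, 28.1 ± 24.1 in CD_DSS and 2.14 ± 1.11 in HFD_DSS (SD, n = 3 each). The transferases Gstm3 (−1.66), Gstm2 (−1.46), Gstm6 (−1.20), Gsta2 (−0.96), Gsta3 (−0.90) and Gsta4 (−0.72) also fell. The Gstm3 call was lost without any 1 of 9 libraries and with no filter. That of Gsta4 was lost without any 1 of 8 libraries, with no filter and with TPM scaling, and that of Gsta2 with no filter. These transferase families have near-identical copies between which reads can be split, so single members are uncertain. The same limit holds for Cyp2a5, whose near-copy Cyp2a4 was listed at 0 to 0.563 FPKM. Of the 3 tested exporters, Abcg2 fell (−0.67).

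The glutathione, thioredoxin and peroxide enzymes moved in both directions, with 2 of 14 higher and 5 lower. Gss, which completes glutathione synthesis after Gclc and Gclm, rose by 0.50 (limma adjusted p = 0.00784), from 8.87 ± 0.49 FPKM in CD to 15.1 ± 1.41 in CD_DSS and from 10.3 ± 2.16 in HFD to 12.8 ± 1.88 in HFD_DSS (SD, n = 3 each). Chac1, which degrades glutathione and is a target of the stress factor ATF4, rose by 0.84. Catalase (Cat, −0.57), the peroxidase Gpx1 (−0.47), the peroxiredoxins Prdx6 (−0.40) and Prdx3 (−0.25) and superoxide dismutase Sod1 (−0.28) fell. The Prdx3 call was lost without any 1 of 10 libraries (limma adjusted p up to 0.114) and that of Sod1 without CD_DSS 3 (0.0519). With TPM scaling the calls of Prdx6 (limma adjusted p = 0.0580), Sod1 (0.0547) and Prdx3 (0.133) were lost.

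Of the other 6 genes of NADPH supply, 3 fell: transketolase Tkt (−0.34), Pgd (−0.29), the step after G6pdx and its lactonase, and transaldolase Taldo1 (−0.21). These 3 calls were all lost with TPM scaling (limma adjusted p 0.0560 to 0.163), and that of Taldo1 without 8 single libraries as well (up to 0.0910). Of the 11 partners and regulators, Mafk, a small MAF protein that pairs with NRF2, rose by 0.52 (limma adjusted p = 0.0116), and Sqstm1, the autophagy receptor p62 that can draw KEAP1 away from NRF2, by 0.24 (adjusted p = 0.0251). The Sqstm1 call was lost without CD 3, HFD 2, CD_DSS 3 or HFD_DSS 1 (limma adjusted p 0.0571 to 0.0617). None of the 6 other heme and iron genes passed. Of 6 other targets 1 rose and 1 fell: Osgin1, an oxidative stress-induced growth inhibitor, rose by 0.95 (limma adjusted p = 0.00661), and Entpd5, a nucleotide diphosphatase of the endoplasmic reticulum, fell by 0.53 (adjusted p = 0.0443). The Entpd5 call was lost without any 1 of 9 libraries (limma adjusted p up to 0.104), with no filter, with TPM scaling and with the replicate block.

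**Figure D4:**
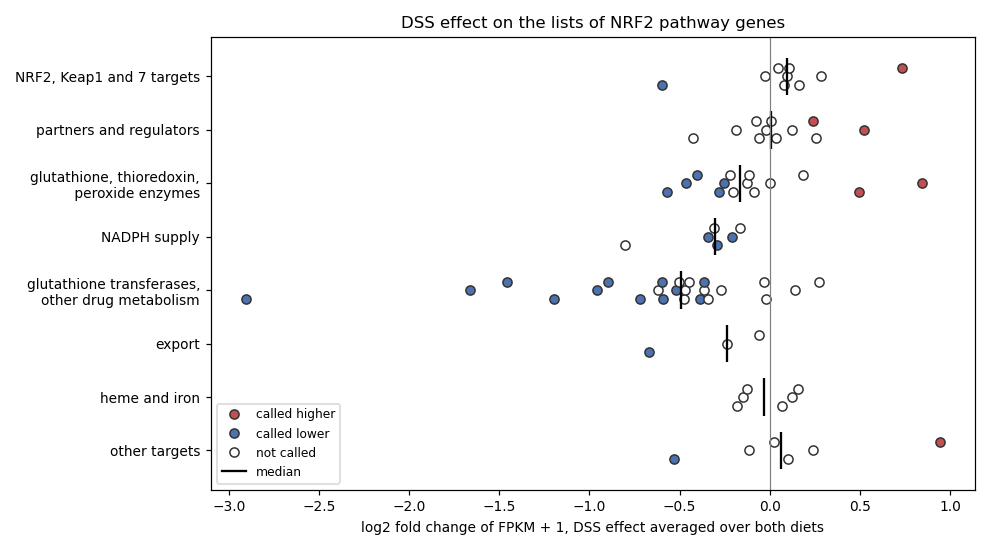
Log2 fold change of FPKM + 1 with DSS averaged over both diets (x axis) for the 9 tested NRF2 genes and for each list of other pathway genes (rows), 1 point a gene, filled red or blue where called higher or lower, with a bar at the list median. Most blue points lie among the glutathione transferases and other drug-metabolizing enzymes, where the median was −0.49.

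Targets of ATF4, an amino acid stress factor that shares some targets with NRF2, such as Slc7a11, were set beside these genes. Of 7 tested, Ddit3 (1.22), Atf3 (0.73) and Asns (0.65) were higher with DSS averaged over both diets, beside 8.72% of all tested genes. Cth, which makes cysteine from cystathionine, was lower (−0.98), beside 11.2% of all tested genes. Atf3 had 0.303 to 1.80 FPKM over the libraries, levels at which the scale of FPKM + 1 understates fold changes. Asns was higher on HFD (1.42, limma adjusted p = 0.0260) and had a log2 fold change of −0.11 on CD (adjusted p = 0.855), and the difference between both was not called (1.54, adjusted p = 0.699). Its averaged call was lost with no filter on low values (limma adjusted p = 0.113) and without any 1 of 9 libraries (up to 0.0972). Between diets, 3 pathway genes were lower on HFD averaged over both DSS states, Cyp2a5 (−2.00), Gsta2 (−1.40) and the carbonyl reductase Cbr1 (−0.75, limma adjusted p = 0.00874). The Cbr1 call was kept in every alternative. That of Cyp2a5 was lost without any 1 of 7 libraries (limma adjusted p up to 0.0698), with no filter (0.0940) and with the replicate block (0.0582). That of Gsta2 was lost without any 1 of 8 libraries (up to 0.101), with no filter (0.122), TPM scaling (0.0524) and the replicate block (0.0565). Between HFD_DSS and CD_DSS, Cyp2a5 was the pathway gene called (−2.97, limma adjusted p = 0.0303), and this call was lost without any 1 of 6 libraries (up to 0.160), with no filter (0.160), with the replicate block (0.0743) and with the 2 groups alone (0.204).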

How the data were processed

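Per the labels' protocols, a Qiagen RNeasy kit gave total liver RNA and a SMARTer kit for mRNA-seq gave the libraries. The FPKM values were used as deposited by the authors, 1 column per library. Per the submitters' processing notes, the genome build is mm10. The aligner, counter, strand setting and annotation they used were not given in the sources used here. Symbols and exon lengths came from GENCODE (mm10), matched for 54409 of 54532 genes, and 4 columns with no name and no value were not used. FPKM times exon length gave fragments, with 97.0 to 97.3% of values under 500 fragments within 0.02 of a whole number.

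Genes that reached 1 FPKM in 3 or more of the 12 libraries were tested as log2(FPKM + 1) with limma 3.58.1 in R 4.3.3, in 1 fit of 4 group means with a variance trend, two-sided. P-values were adjusted by Benjamini-Hochberg over all 10806 genes, with a threshold of 0.05. The fit was tested on simulated data, in which values were drawn independently for each gene and library. Such data hold no deviations shared across the genes of a library, so the test does not cover them. Fold changes are of FPKM + 1. DSS comparisons within a diet share their control libraries with the averaged effect and with the diet comparisons.

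The 10 genes, the lists and the tests were chosen with earlier results of these data known. The rule named the 10 genes and, per comparison, up to 10 called pathway genes by size of change. Gss, Mafk, Sqstm1, Cat, Gpx1, Prdx6, Prdx3, Sod1, Tkt, Pgd, Taldo1 and Entpd5 in the averaged DSS effect, Saa1, Ikbkg, the ATF4 targets and the Kupffer markers were named after their values were seen. The hepatocyte marker Tf had no row under that symbol. Alternatives were a pseudocount of 0.1, no filter, TPM, median-of-ratios scaling, library weights, the replicate number as a block, the 2 groups alone, 3 libraries left out together and each library left out in turn.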

Additional observations from a re-analysis of the deposited data

How the results depend on the processing

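The number of the 9 tested genes called with DSS averaged over both diets, 2, was 0 with no filter, 1 with TPM, 1 with median-of-ratios scaling, 4 with library weights, 0 with the replicate block, 4 without the 3 libraries that stood apart in Saa1, and 0 to 3 without each library in turn. On CD, where it was 0, it was 3 with library weights, 3 without those 3 libraries and 0 to 2 without each library in turn, and on HFD, also 0, it was 2, 2 and 0 to 1. The library weights were lowest for these same 3 libraries, HFD 1 (0.371), CD_DSS 1 (0.374) and HFD_DSS 2 (0.592). Weighting the libraries and leaving out the 3 are therefore not independent alternatives. Over all genes the calls went from 519 to 157 (no filter), 290 (replicate block), 264 (2 groups alone), 2592 (library weights) and 1941 (without the 3) on CD, and from 522 to 130, 278, 152, 2820 and 2028 on HFD, where TPM gave 333. The averaged effect went from 2157 to 1514 (no filter), 1805 (TPM), 2211 (median-of-ratios scaling), 1836 (replicate block), 4259 (library weights) and 3359 (without the 3). Without each library in turn the calls were 63 to 1285 on CD, 9 to 910 on HFD and 1306 to 2668 averaged. Among the diet comparisons, HFD against CD (1 call) gave 0 to 66 over the alternatives other than leaving out 1 library, HFD_DSS against CD_DSS (11) 5 to 147, and the averaged diet effect (37) 22 to 263, each highest with library weights. No alternative called any of the 9 genes in the 3 diet comparisons or in the difference between DSS effects. Signs turned for Gclm on CD (−0.0096 with library weights, −0.018 without the 3 libraries, −0.018 to 0.13 leaving out 1), Srxn1 on CD (0.013 with TPM, 0.0057 with median-of-ratios, −0.12 to 0.068 leaving out 1) and Nqo1 on HFD (−0.062 with library weights, −0.15 without the 3 libraries, −0.20 to 0.14 leaving out 1). Leaving out 1 library, the range was −0.086 to 0.48 for Hmox1 in HFD_DSS against CD_DSS, and for averaged DSS −0.078 to 0.022 for Nfe2l2, −0.012 to 0.18 for Nqo1 and −0.0078 to 0.084 for Srxn1. Same-numbered libraries of different groups deviated together at r of −0.36 to 0.26 over 18 pairs, and other pairs at −0.36 to 0.46. Of the 12 libraries, 2 correlated best with their own number. With 3 libraries per group, these values cannot show whether the samples were paired by number. At 0 to 5 fragments per library, Slc7a11 could not be tested. Leaving out a library leaves 2 in its group, and the cause of the lost and gained calls was not tested.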
